A study of Homo sapiens with 12 samples.

Results

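A set of 10 genes of nicotinamide adenine dinucleotide (NAD) and nicotinamide metabolism was followed through KDM3A depletion in rhabdomyosarcoma cells. They were taken by symbol from the deposited table, and all 10 were among its 65975 gene identifiers. NNMT and NAPRT were put on the list because of their values in these libraries, so their values are described without a test and they are left out of every count of called genes. The other 8 genes (NAMPT, NMNAT1, NMNAT2, NMNAT3, NADSYN1, QPRT, NT5E and NADK) were chosen by function. RNA was sequenced from the patient-derived lines RD, which is fusion-negative (FN-RMS), and Rh30, which is fusion-positive (FP-RMS), with 3 libraries in each of 4 groups. Cells of each line had been transduced with lentivirus and selected with puromycin, and stably carried either a scrambled control shRNA (Scramble) or a single KDM3A-targeting shRNA (KDM3A-sh2). RD cells were kept in DMEM and Rh30 cells in RPMI, so line and medium cannot be told apart when the lines are compared. The labels call the 3 libraries of a group replicates without saying what was repeated, and the p-values then measure only the spread between these libraries, which may be technical. The sample descriptions of Rh30 Scramble all end in the same number, while those of each other group are numbered in turn. Whether the Rh30 Scramble libraries share a culture is not stated.

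NAD is both a carrier of electrons in metabolism and a substrate that PARP and sirtuin enzymes break down, releasing nicotinamide. Cells rebuild it from nicotinamide through NAMPT, from nicotinic acid through NAPRT, or from tryptophan by way of quinolinate through QPRT. These routes meet at the NMNAT enzymes, which make the dinucleotide in the nucleus (NMNAT1), at the Golgi and in the cytosol (NMNAT2) or in mitochondria (NMNAT3). NADSYN1 finishes the nicotinic acid and quinolinate routes, and NADK phosphorylates NAD to NADP. NNMT takes nicotinamide out of salvage by methylating it with S-adenosylmethionine. NT5E (CD73) is a cell-surface nucleotidase that makes adenosine and can also act on extracellular nicotinamide mononucleotide. KDM3A is a demethylase of lysine 9 of histone H3.

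Expression was given as FPKM, fragments scaled to exon length and to how many reads each library had mapped, so levels can be compared between genes per unit of length. FPKM do not hold the number of reads. Summed FPKM ran from 1198300 to 1379197 per library, and 17473 to 17983 genes reached 1 FPKM. Relative to the median library, the depth read from the steps between low values was 0.862 at the least and 1.19 at the most. It was lower with KDM3A-sh2 (0.862 to 0.995 in RD, 0.947 to 0.997 in Rh30) than with Scramble (1.03 to 1.19 and 1.00 to 1.02). Its part in the results was not tested. Of 8 muscle lineage markers, 6 averaged at least 1 FPKM in all 4 groups, while MYF5 and MYF6 did not. Of 8 markers of FP-RMS, 8 did so in Rh30 and 4 in RD. Of 8 markers of other cell types, 0 did so in RD and only EPCAM in Rh30 (their summed level was 0.730 to 1.48 FPKM in RD and 6.41 to 8.73 in Rh30).

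KDM3A itself was reduced in both lines. In RD it was at 35.8, 33.9 and 30.9 FPKM with Scramble and at 12.0, 11.2 and 13.4 with KDM3A-sh2, a log2 fold change of -1.39 (SE 0.083, adjusted p = 5.00e-05, limma with Benjamini-Hochberg adjustment over all genes tested). In the Rh30 libraries it was at 27.8, 29.2 and 32.0 FPKM with Scramble and at 13.7, 13.2 and 15.4 with KDM3A-sh2, a log2 fold change of -1.02 (SE 0.079, adjusted p = 0.000348). The RNA came from bulk cultures, in which fewer expressing cells and less RNA per cell cannot be told apart. All log2 fold changes given here are on the log2(FPKM + 1) scale, which understates changes of genes near or below 1 FPKM.

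With Scramble the 10 genes ranged from barely detected to among the most abundant. NNMT led in both lines, with 590.3 ± 8.7 FPKM (SD, n = 3) in RD, above 98.4% of the 17905 genes that averaged at least 1 FPKM there. In RD the order after NNMT was NT5E, QPRT, NAMPT, NADK, NADSYN1, NAPRT, NMNAT1, NMNAT2 and NMNAT3, and no neighbours in it overlapped in their 3 libraries. In Rh30 the order was NNMT, QPRT, NADK, NAMPT, NAPRT, NADSYN1, NMNAT1, NMNAT3, NT5E and NMNAT2. There QPRT overlapped NADK, NAMPT overlapped NAPRT, NAPRT overlapped NADSYN1, and the last 3 genes overlapped their neighbours. The plot of FPKM by library shows all 120 values.

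**Figure D1:**
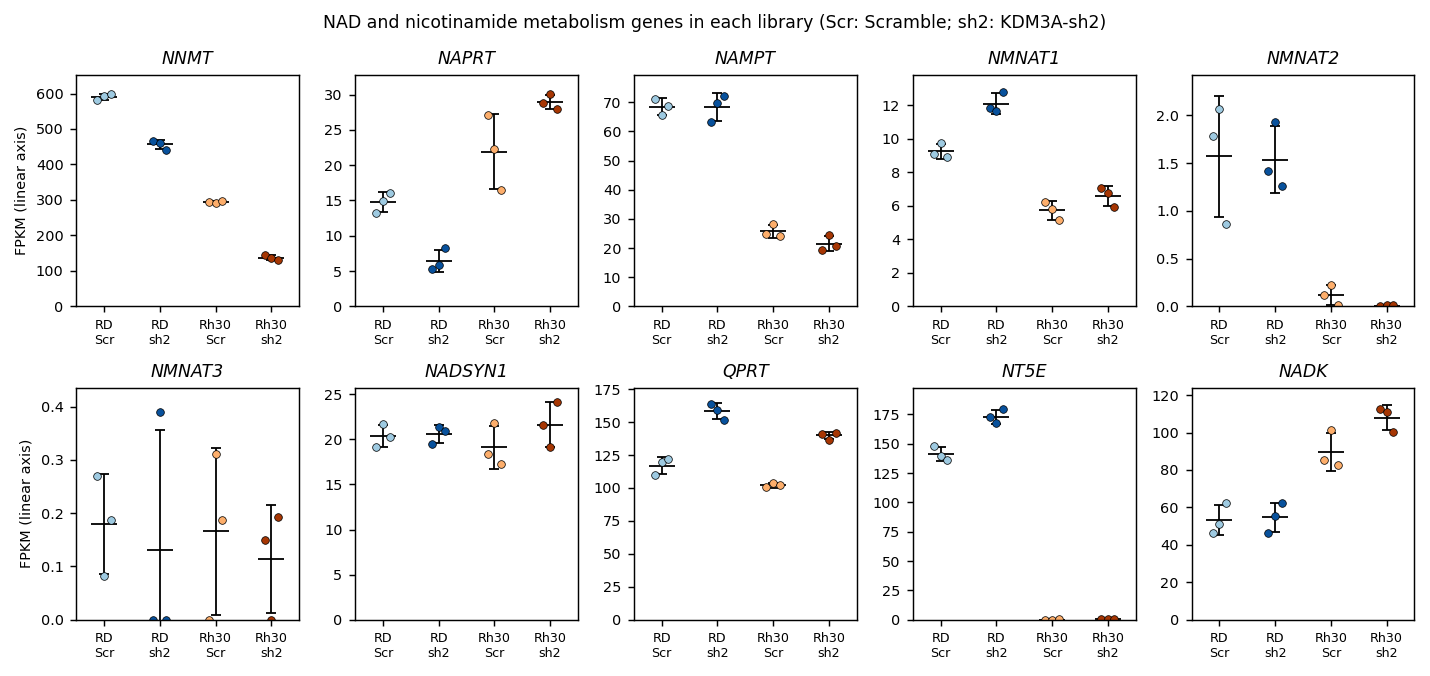
FPKM (linear axis from 0) of the 10 genes in each of the 12 libraries, grouped as RD Scramble, RD KDM3A-sh2, Rh30 Scramble and Rh30 KDM3A-sh2; points are libraries, horizontal marks the mean of 3 and bars 1 SD, cut off at 0. NNMT lies lower with KDM3A-sh2 in both lines, QPRT higher in both, and NAPRT lower in RD (5.30 to 8.20 against 13.2 to 16.0) but higher in Rh30 (28.0 to 30.0 against 16.5 to 27.0).

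NNMT, the nicotinamide methyltransferase, was lower with KDM3A-sh2 in both lines. The gene (ENSG00000166741) lies on the plus strand at chr11:114257787-114313285 of GRCh38. In RD it stood at 581, 593 and 598 FPKM with Scramble and at 467, 461 and 441 with KDM3A-sh2, so that the groups did not overlap and the mean was lower by 22.7% (log2 fold change -0.37, SE 0.033). In Rh30 it stood at 296, 292 and 298 FPKM with Scramble and at 144, 138 and 131 with KDM3A-sh2. Here too the groups did not overlap, and the mean was lower by 53.3% (log2 fold change -1.10, SE 0.041). The change in Rh30 was thus the more negative by 0.72 on the log2 scale, while the loss in FPKM was 134 in RD and 157 in Rh30. With Scramble, RD had 2.00 times the NNMT of Rh30. In Rh30 KDM3A-sh2 cells NNMT no longer led the list, since its 131 to 144 FPKM overlapped the 137 to 142 of QPRT. Without any 1 library, the log2 fold change of NNMT lay between -0.39 and -0.35 in RD and between -1.13 and -1.06 in Rh30.

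Over the 12 libraries, the 3 genes whose log2(FPKM + 1) followed NNMT most closely among 11016 genes averaging 10 FPKM or more were VCAN, SCRN1 and ACSL3. VCAN encodes the matrix proteoglycan versican and averaged 111, 92.7, 61.8 and 28.5 FPKM in RD Scramble, RD KDM3A-sh2, Rh30 Scramble and Rh30 KDM3A-sh2 (Pearson r = 0.996). SCRN1 averaged 297, 269.6, 219 and 152 FPKM in the same groups (r = 0.994). ACSL3, an enzyme that activates fatty acids, averaged 138, 117, 94.9 and 64.7 FPKM (r = 0.994). Like NNMT, all 3 were highest in RD Scramble and lowest in Rh30 KDM3A-sh2. These r describe 12 points that fall into 4 groups and carry no test. The shared order is no separate result, since the genes were picked for this likeness.

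NAPRT, which starts NAD synthesis from nicotinic acid, stood lower with KDM3A-sh2 in RD and higher in Rh30. In RD it was at 13.2, 14.9 and 16.0 FPKM with Scramble and at 5.30, 5.82 and 8.20 with KDM3A-sh2. All 3 KDM3A-sh2 libraries lay below all 3 Scramble libraries, with a mean lower by 56.3% (log2 fold change -1.10, SE 0.15). In Rh30 it was at 27.0, 22.3 and 16.5 FPKM with Scramble and at 28.8, 30.0 and 28.0 with KDM3A-sh2. All 3 KDM3A-sh2 libraries lay above the Scramble libraries, by 1.32 times in the mean (log2 fold change 0.41, SE 0.16). The Scramble libraries of Rh30 were spread widely here, with an SD of 5.30 FPKM against 1.01 with KDM3A-sh2, and without replicate 1 or 3 of Rh30 Scramble the change took its extremes of 0.57 and 0.23. The difference between the lines came to 1.51 on the log2 scale and was not tested. The values belong to the entry ENSG00000147813, and a second entry with the same symbol was listed at 0 in all 12 libraries.

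The 3 genes most like NAPRT over the 12 libraries were RPS28P7, KCTD15 and CHCHD2. RPS28P7 is a pseudogene of a ribosomal protein gene that could share reads with its parent, and averaged 1216, 947, 1395 and 1492 FPKM in RD Scramble, RD KDM3A-sh2, Rh30 Scramble and Rh30 KDM3A-sh2 (r = 0.987). KCTD15 averaged 20.8, 12.6, 29.1 and 31.4 FPKM (r = 0.982), and CHCHD2, which encodes a mitochondrial protein, averaged 693, 610.1, 762 and 816 FPKM (r = 0.978). All 3 shared with NAPRT the lowest mean in RD KDM3A-sh2 and the highest in Rh30 KDM3A-sh2. Since they were picked for their likeness over these libraries, the shared order is no separate result, and the r carry no test.

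In RD, 7 of the 8 genes not chosen from their values passed the filter of a mean of 1 FPKM, and 3 of them were called at an adjusted p under 0.05: QPRT, NMNAT1 and NT5E, all higher with KDM3A-sh2. Over all 18001 genes tested in RD, 41.1% were called (21.6% higher and 19.5% lower), so that 3 of 7 is near the background. NMNAT3 stayed below the filter. In Rh30, 5 of the 8 passed the filter and 1, QPRT, was called, against 28.5% of 17811 genes (15.3% higher and 13.2% lower). NMNAT2, NMNAT3 and NT5E stayed below the filter there. The median log2 fold change was 0.04 over the 7 genes in RD and 0.18 over the 5 in Rh30, beside 0.01 and 0.03 over all genes tested. An exact permutation test of 3 libraries against 3 cannot give a p below 0.1, which QPRT reached in both lines and NMNAT1 and NT5E in RD. Below the filter in Rh30, NMNAT2 (lower) and NT5E (higher) reached it too. A p of 0.1 here says only that the groups did not overlap. How many of all genes did so was not counted, so it does not set these genes apart.

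**Figure D2:**
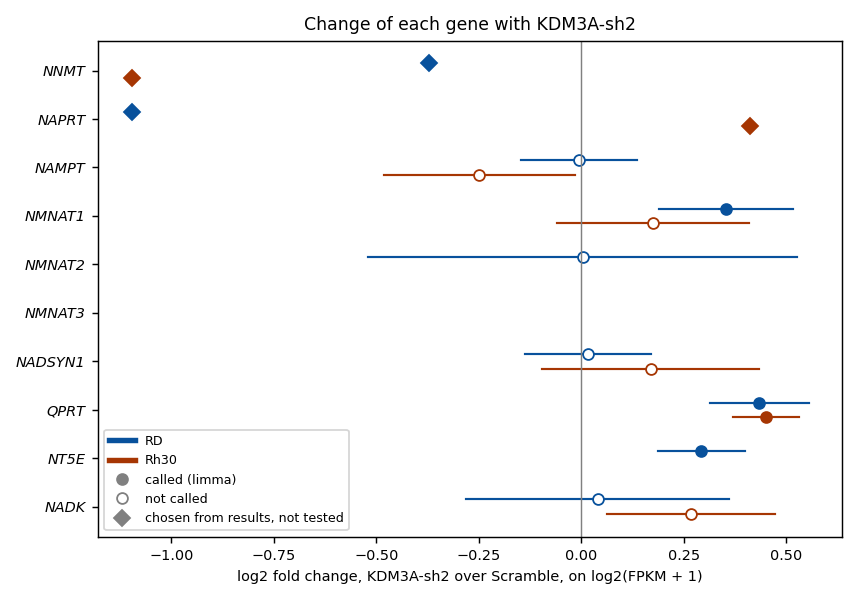
Log2 fold change of KDM3A-sh2 over Scramble on the log2(FPKM + 1) scale (x axis) for each gene in RD (blue) and Rh30 (brown); circles carry the 95% confidence interval from limma and are filled where the gene was called, and diamonds mark the 2 genes chosen from their values, without an interval. QPRT is filled in both lines at nearly the same value (0.43 and 0.45), while NMNAT1 and NT5E are filled in RD only; genes below the filter have no symbol.

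QPRT, the entry of quinolinate into NAD synthesis, rose in both lines by almost the same factor. The gene lies on the plus strand at chr16:29679008-29698699 of GRCh38. In RD it was at 109.8, 119 and 122 FPKM with Scramble and at 164, 159 and 152 with KDM3A-sh2 (1.35 times, log2 fold change 0.43, SE 0.051, adjusted p = 0.000732 from limma). In Rh30 it was at 100.4, 104 and 102 FPKM with Scramble and at 141, 137 and 142 with KDM3A-sh2 (1.37 times, log2 fold change 0.45, SE 0.034, adjusted p = 0.000332). In each line every KDM3A-sh2 library exceeded every Scramble library. The difference between the changes was 0.02, with a 95% confidence interval from -0.12 to 0.15 (adjusted p = 0.869). An annotated coding gene that overlaps QPRT on the same strand, AC009086.2, averaged at most 0.325 FPKM in any group.

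NMNAT1, the nuclear adenylyltransferase, rose in RD. It was at 9.06, 9.75 and 8.90 FPKM with Scramble and at 11.8, 11.6 and 12.8 with KDM3A-sh2 (1.31 times, log2 fold change 0.35, SE 0.069, adjusted p = 0.00635), and the groups did not overlap. Its Rh30 values were 6.21, 5.81 and 5.14 FPKM with Scramble and at 7.06, 6.77 and 5.94 with KDM3A-sh2. These ranges overlapped, and the log2 fold change of 0.18 was not called (95% confidence interval -0.06 to 0.41, adjusted p = 0.225). The changes in the lines differed by -0.18 (interval -0.43 to 0.08), which was not called either. AL603962.1 overlaps NMNAT1 on the same strand. It averaged 0.879 FPKM in RD with Scramble and 0.0286 with KDM3A-sh2, and 0.254 and 0.553 in Rh30. Its part in the NMNAT1 values was not tested.

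NMNAT2 and NMNAT3, its counterparts outside the nucleus, were scarce. NMNAT2 was at 1.78, 2.07 and 0.860 FPKM in RD with Scramble and at 1.41, 1.93 and 1.26 with KDM3A-sh2, overlapping ranges with a log2 fold change of 0.00 (interval -0.52 to 0.53). The Rh30 values were 0.115, 0.227 and 0.0186 FPKM with Scramble and between 0 and 0.00990 with KDM3A-sh2. No fold is given for levels so low. NMNAT3 reached at most 0.390 FPKM, and in 4 of the 12 libraries it was listed at under 1e-07 FPKM. It overlaps 2 other annotated genes that were listed at higher levels, AC046134.1 on its own strand (1.42 to 3.90 FPKM by group) and AC097103.2 on the opposite strand (1.91 to 3.56), so its level is uncertain. In both lines NMNAT1 was therefore the adenylyltransferase with the highest level per length.

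Of the 10 genes, NT5E (CD73) separated the lines most. The gene lies on the plus strand at chr6:85449584-85495791. In RD it was at 148, 139.8 and 136 FPKM with Scramble and rose to 173, 167 and 179 with KDM3A-sh2 (1.23 times, log2 fold change 0.29, SE 0.045, adjusted p = 0.00231), without overlap. Rh30 gave 0.0924, 0.0890 and 0.184 FPKM with Scramble and at 0.348, 0.338 and 0.187 with KDM3A-sh2. The Rh30 values did not overlap, but they lay below the filter, so the limma fit of Rh30 did not test their difference. The Scramble libraries of Rh30 thus all lay far below those of RD, and as for NMNAT2 no fold is given for levels so low.

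NAMPT, the rate-limiting enzyme of nicotinamide salvage, was not called in either line. In RD it was at 71.1, 65.7 and 68.8 FPKM with Scramble and at 63.1, 69.8 and 72.2 with KDM3A-sh2, overlapping ranges with a log2 fold change of -0.01 (interval -0.15 to 0.14, adjusted p = 0.952). Rh30 libraries gave 24.9, 28.2 and 24.1 FPKM with Scramble and at 19.4, 24.4 and 20.9 with KDM3A-sh2 (log2 fold change -0.25, SE 0.098, adjusted p = 0.102). The Rh30 ranges overlapped as well, in replicate 2 of KDM3A-sh2. Without that library the log2 fold change in Rh30 was -0.34 and was called (adjusted p = 0.0440; range over 16 alternatives 0.0440 to 0.256), and so was the difference between the lines (-0.33, adjusted p = 0.0441; range over 21 alternatives 0.0441 to 0.466). A near-identical copy of NAMPT, the pseudogene NAMPTP1, was listed at 24.5, 24.4, 11.7 and 10.6 FPKM in RD Scramble, RD KDM3A-sh2, Rh30 Scramble and Rh30 KDM3A-sh2. A further pseudogene, NAMPTP3, was listed at 3.91, 3.19, 1.34 and 3.49 FPKM in the same order, so its mean was higher with KDM3A-sh2 in Rh30. Reads could have been split among these genes, which leaves the level of NAMPT and its change in Rh30 uncertain.

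NADK and NADSYN1 were not called in either knockdown comparison. NADK was at 46.4, 51.0 and 62.4 FPKM in RD with Scramble and at 46.5, 55.5 and 62.2 with KDM3A-sh2 (log2 fold change 0.04, interval -0.28 to 0.36). In Rh30 it was at 85.3, 101 and 82.4 FPKM with Scramble and at 113, 111 and 100.4 with KDM3A-sh2 (log2 fold change 0.27, SE 0.086, adjusted p = 0.0590). The Rh30 groups overlapped only through replicate 2 of Scramble and replicate 3 of KDM3A-sh2. Without replicate 2 of Rh30 Scramble, the log2 fold change of NADK was 0.36 and was called (adjusted p = 0.0141; range over 16 alternatives 0.0141 to 0.158). NADSYN1 stayed between 17.2 and 24.1 FPKM in all 12 libraries, with log2 fold changes of 0.02 in RD (interval -0.14 to 0.17) and 0.17 in Rh30 (interval -0.10 to 0.43).

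The response to KDM3A-sh2 was compared between the lines as the interaction of line and shRNA over all 12 libraries. Of the 8 genes, 6 passed the filter, NT5E through RD only, and 0 were called by limma, and 0 had an unadjusted p under 0.05. Over all 18532 genes tested, 27.9% were called (14.4% with a more positive change in Rh30 and 13.5% with a more negative one). These were 2669 and 2493 genes, and 2061 and 3018 once each library was rescaled to the same sum. The widest interval among the 6 genes was that of NADK, at 0.23 (interval -0.17 to 0.62). A per-gene analysis of variance on FPKM without a log called 2 of the 6, NMNAT1 (adjusted p = 0.0487; range over 21 alternatives 0.0487 to 0.501) and NT5E. That test compares differences in FPKM, which for NT5E were 31.9 in RD and 0.169 in Rh30.

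The lines differed at baseline in most of the genes. With Scramble, 6 of the 8 genes passed the filter, NT5E through RD only, where it is high, so that it had to differ and its values are a description. Of the other 5, 4 were called between Rh30 and RD, against 74.5% of 18367 genes (34.9% higher and 39.6% lower in Rh30), so this share too is near the background. NADK was higher in Rh30 (log2 difference 0.75, SE 0.12, adjusted p = 0.00114). NAMPT (-1.38, adjusted p = 2.11e-06), NMNAT1 (-0.61, adjusted p = 0.000514) and QPRT (-0.19, adjusted p = 0.00823) were lower there. NADSYN1 differed by -0.09 (interval -0.32 to 0.14) and was not called. Rescaling each library to the same sum moved the median of all genes in this comparison by -0.10 on the log2 scale and left the 4 calls and their directions in place, with QPRT at -0.30. Of the 2 genes chosen from their values, NNMT was lower in Rh30 by 1.00 on the log2 scale and NAPRT higher by 0.52. This comparison uses the same Scramble libraries as the knockdown comparisons.

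**Figure D3:**
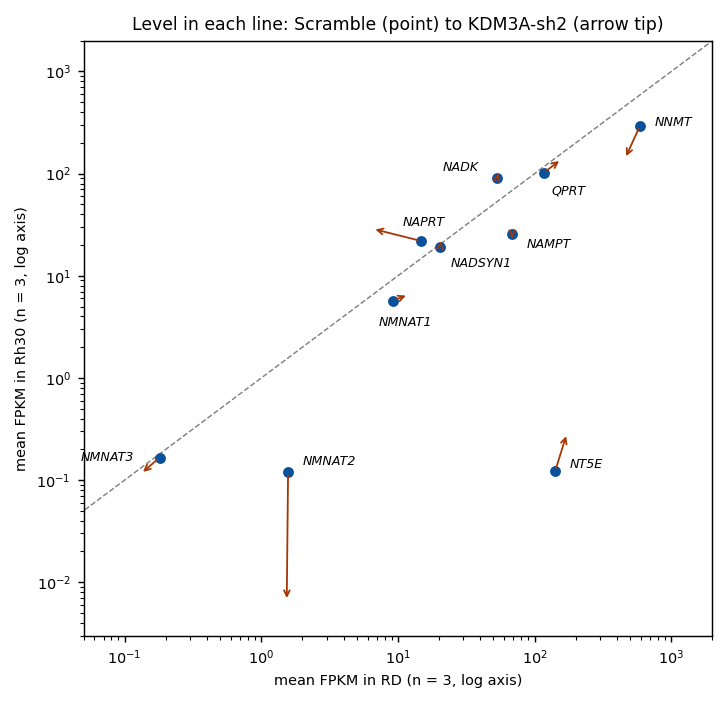
Mean FPKM of each gene in RD (x axis, log scale) and Rh30 (y axis, log scale), n = 3 libraries per group; the point is Scramble, the arrow tip KDM3A-sh2, and the dashed line equal levels. NT5E lies far to the right of the line, at 141 FPKM in RD and 0.122 in Rh30, QPRT moves up along the line, NNMT moves down, and NAPRT moves away from it to the upper left; the long arrow of NMNAT2 joins 0.120 and 0.00644 FPKM in Rh30.

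A further 16 genes of NAD synthesis and salvage were chosen by function, and 9 of them passed the filter in each line. In RD 3 were called higher and 2 lower, and in Rh30 4 higher and 2 lower, with a median log2 fold change of 0.12 and 0.28 beside 0.01 and 0.03 over all genes. Counts of this and the next lists stand beside the shares of all genes called in RD (21.6% higher, 19.5% lower) and in Rh30 (15.3% higher, 13.2% lower). The nicotinamide riboside kinase NMRK1 rose in RD from 4.11 ± 0.37 to 7.94 ± 1.15 FPKM (limma log2 fold change 0.80 with an adjusted p of 0.00195). NADK2, the mitochondrial NAD kinase, rose in RD from 13.2 ± 1.1 to 21.9 ± 0.36 FPKM (limma log2 fold change 0.69 with an adjusted p of 0.000360). The purine nucleoside phosphorylase PNP, which splits nicotinamide riboside, fell there from 40.7 ± 1.1 to 23.9 ± 1.4 FPKM (limma log2 fold change -0.75 with an adjusted p of 0.000114). AFMID, the kynurenine formamidase, fell from 90.1 ± 3.0 to 78.4 ± 0.71 FPKM in RD (limma log2 fold change -0.20 with an adjusted p of 0.00582).

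In Rh30 the largest rises on that list were those of HAAO and NMRK2. NADK2 (limma log2 fold change 0.53, adjusted p = 0.00636) and NMRK1 (0.30, adjusted p = 0.00368) were called higher in Rh30 as well as in RD. HAAO, the oxygenase whose product becomes quinolinate, rose from 4.72 ± 1.58 to 9.04 ± 0.46 FPKM (limma log2 fold change 0.85 with an adjusted p of 0.0226). NMRK2 rose from 1.51 ± 0.42 to 2.99 ± 0.14 FPKM (limma log2 fold change 0.68 with an adjusted p of 0.0169). The falls were those of SLC25A51, the mitochondrial NAD carrier (-0.32, adjusted p = 0.0162), and of PNP (-0.22, adjusted p = 0.0438). The calls of HAAO, NMRK2, SLC25A51 and PNP in Rh30 were each lost when some single library was left out. For HAAO it was any 1 of the KDM3A-sh2 libraries (adjusted p 0.0583 to 0.0678), for NMRK2 Scramble replicate 1 or KDM3A-sh2 replicate 1 or 2 (0.0520 to 0.0577), for SLC25A51 replicate 1 of either group (0.0539 and 0.0557), and for PNP any 1 of the 6 (0.0615 to 0.114). Of the listed genes that lead from tryptophan to quinolinate, IDO1, IDO2, KMO and KYNU were scarce, averaging at most 0.383 FPKM in every group. TDO2 averaged 0.207 to 1.29 FPKM by group, HAAO 4.72 to 26.0 and AFMID 78.4 to 90.1.

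Of 20 NAD-consuming enzymes, 19 passed the filter in RD, with 5 called higher and 3 lower, and 17 in Rh30, with 4 higher and 3 lower (median log2 fold change 0.10 in both lines). PARP3, which acts at DNA breaks, rose from 19.0 ± 1.3 to 34.7 ± 1.6 FPKM in RD (limma log2 fold change 0.84 with an adjusted p of 0.000134) and from 12.1 ± 0.39 to 17.1 ± 0.26 in Rh30 (0.46, adjusted p = 0.00161). The deacetylase SIRT2 rose in RD from 136 ± 4.4 to 204 ± 5.6 FPKM (limma log2 fold change 0.58 with an adjusted p of 7.65e-05). It was also called higher in Rh30, by less (0.17, adjusted p = 0.0318). SIRT6 rose in Rh30 from 15.3 ± 0.85 to 19.7 ± 0.92 FPKM (limma log2 fold change 0.35 with an adjusted p of 0.00890). The tankyrase TNKS fell in both lines, with -0.32 and an adjusted p of 0.0173 in RD and -0.27 and an adjusted p of 0.00929 in Rh30. PARP14 fell in RD (-0.32, adjusted p = 0.00431) and PARP10 in Rh30 (-0.61, adjusted p = 0.0211). Without replicate 1 or 2 of RD Scramble or replicate 1 of RD KDM3A-sh2, the call of TNKS in RD was lost (adjusted p 0.0548 to 0.0610), as was that of PARP10 without replicate 2 or 3 of Rh30 Scramble (0.0639 and 0.0650). That of PARP14 was lost in 1 fit over all 12 libraries (0.0522). The count of 4 higher genes in Rh30 fell to 2 or 3 whichever library was left out.

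The list of methyl donor and 1-methylnicotinamide genes holds genes that make or recycle the methyl donor S-adenosylmethionine, and the AHCY-like genes AHCYL1 and AHCYL2. It also holds other methyltransferases that use this donor (GNMT, INMT, PEMT), CBS, which draws homocysteine out of the cycle, and AOX1. Of its 15 genes, 11 passed the filter in RD, with 4 called higher and 4 lower (against 21.6% and 19.5% of all genes), and 9 in Rh30, where 1 was called, higher (against 15.3%; median log2 fold change 0.09 and 0.04). Without replicate 3 of Rh30 KDM3A-sh2, 1 was also called lower in Rh30. AOX1, the aldehyde oxidase that oxidizes 1-methylnicotinamide, stood in RD at 0.667, 0.758 and 0.781 FPKM with Scramble and at 3.04, 3.90 and 3.41 with KDM3A-sh2, without overlap. It is 1 of the 4 called higher, but it passed the filter only through the KDM3A-sh2 libraries, so its log2 fold change of 1.35 is given as a description. In Rh30 it stayed below the filter, at means of 0.512 and 0.970 FPKM. BHMT2, a homocysteine methyltransferase, rose in RD from 1.24 ± 0.41 to 3.10 ± 0.79 FPKM (limma log2 fold change 0.87 with an adjusted p of 0.0149), a call lost without replicate 2 or 3 of RD KDM3A-sh2 (adjusted p 0.0522 and 0.0501). MTRR, the methionine synthase reductase, fell in RD (-0.64, adjusted p = 0.00672), and so did MAT2B, a subunit of the enzyme that makes S-adenosylmethionine (-0.36, adjusted p = 0.000584). The called gene in Rh30 was the phosphatidylethanolamine methyltransferase PEMT, from 46.8 ± 2.9 to 69.9 ± 6.8 FPKM (limma log2 fold change 0.57 with an adjusted p of 0.00335).

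NT5E acts among the enzymes, carriers and receptors of extracellular adenosine, of which 15 were listed. In RD 11 passed the filter, with 5 called higher and 1 lower, and in Rh30 10 passed, with 1 higher and 1 lower (median log2 fold change 0.22 and -0.03). ENTPD2, an ectonucleotidase and 1 of the 5, averaged 0.441 ± 0.186 FPKM in RD with Scramble and 1.85 ± 0.082 with KDM3A-sh2, and it passed the filter only through the latter, so its log2 fold change of 0.99 is a description. The adenosine receptor ADORA2A rose in RD from 6.47 ± 0.38 to 9.87 ± 0.33 FPKM (limma log2 fold change 0.54 with an adjusted p of 0.00122). The nucleoside carrier SLC29A2 fell in RD (-0.34, adjusted p = 0.00849). In Rh30 the carrier SLC29A1 rose (0.16, adjusted p = 0.0181) and the receptor ADORA1 fell from 69.8 ± 5.6 to 50.8 ± 2.0 FPKM (limma log2 fold change -0.45 with an adjusted p of 0.00410). SLC29A1 was also called higher in RD (limma log2 fold change 0.22 with an adjusted p of 0.00279). Its call in Rh30 was lost without Scramble replicate 1 or KDM3A-sh2 replicate 2 or 3 (adjusted p 0.0538 to 0.0644). Without RD Scramble replicate 1 a second gene of the list was called lower in RD.

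**Figure D4:**
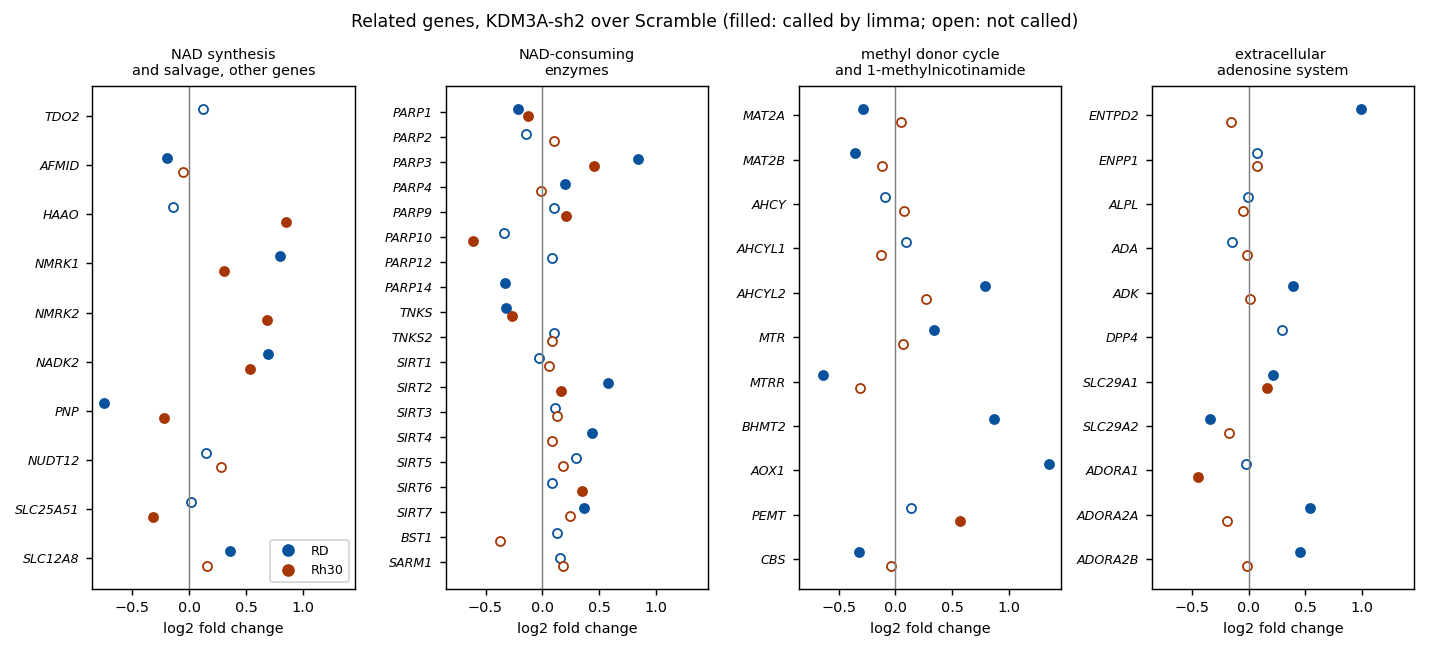
Log2 fold change of KDM3A-sh2 over Scramble on the log2(FPKM + 1) scale (x axis) for the genes of 4 related lists that passed the filter, in RD (blue) and Rh30 (brown); filled circles were called by limma and open ones were not. In the list with the methyl donor cycle 8 of 11 circles are filled in RD and 1 of 9 in Rh30, where 41.1% and 28.5% of all genes were called; the point farthest to the right is AOX1 in RD, at 1.35, which passed the filter only through the KDM3A-sh2 libraries.

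Among the markers, those of muscle lineage changed in both directions in each line. In RD 2 of the 6 tested were called higher (CHRNA1 at 0.42 and DES at 0.23 on the log2 scale). The other 4 were called lower (MYH3 at -0.83, CDH15 at -0.60, MYOD1 at -0.24 and MYOG at -0.14). In Rh30 2 were called higher (MYOG at 0.56 and MYOD1 at 0.28) and 2 lower (CHRNA1 at -0.64 and CDH15 at -0.25). The summed level of the list was 2217 to 2451 FPKM in RD Scramble and 2688 to 2809 in RD KDM3A-sh2, and 2455 to 2726 and 2831 to 2863 in Rh30. The most abundant genes weigh most in it. In RD these were CHRNA1 (1074 and 1436 FPKM in the mean) and DES (796.1 and 931.6), in Rh30 MYOD1 (769.7 and 930.5) and MYOG (690.6 and 1017). The sum therefore does not describe the other genes of the list. Of the FP-RMS markers 1 was called higher (ASS1, 0.35) and 1 lower (FGFR4, -0.36) in RD, and in Rh30 5 were called higher (led by ASS1 at 0.59 and PIPOX at 0.39) and 2 lower (FOXF1 at -0.26 and FGFR4 at -0.24). The calls of DES in RD and of MYOD1, CDH15, FOXF1 and FGFR4 in Rh30 were each lost in at least 1 fit without a single library (adjusted p 0.0509 to 0.117). The 4 muscle markers called lower in RD fell to 3 without replicate 2 or 3 of RD Scramble or any 1 of the RD KDM3A-sh2 libraries. Of those 4, MYOG lay nearest the threshold (adjusted p = 0.0490 from limma). The part of these markers in the changes of the NAD genes was not tested.

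A short word in the 3' untranslated regions (UTRs) was also looked at, because earlier results of these libraries had singled it out. The longest annotated 3' UTR of each gene (GENCODE 29) was searched for the 7 letters TGAAGCA, on the strand of the transcript only. Of 12419 tested genes with a 3' UTR in RD, 16.7% hold the word, and of 3331 with a 3' UTR within 1.5 times the length of that of NAMPT, 24.0% do. In RD 30.4% of the genes with the word were called lower with KDM3A-sh2, against 20.9% of those without it. In Rh30 the shares were 28.2% and 13.8%. These shares were not matched for the length of the 3' UTR, and their difference was not tested. Among the 10 genes NAMPT alone holds it in full, once, while NMNAT1 and NT5E hold its first 6 letters once each. The sites of these 3 genes are shown because they allow the matches to be read beside the values above, with the matching letters in capitals.
NAMPT, chr7:106249977-106250006, minus strand: aataagtaatacTGAAGCAcattcttaaat
NMNAT1, chr1:9983806-9983835, plus strand: gatagagcaagaTGAAGCtatcagaactga
NT5E, chr6:85494439-85494468, plus strand: agatgaaaaaacTGAAGCtcaaaaagggtt

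The coordinates are those of GRCh38. NMNAT2 and NMNAT3 hold the last 6 letters, GAAGCA, 2 and 5 times. The longest 3' UTRs of NT5E, NMNAT1, NMNAT2 and NMNAT3 have 1787, 2797, 4404 and 6004 bases. The share of all genes with 6 letters of the word was not counted, so these matches do not set the genes apart. NNMT, NAPRT, QPRT, NADK and NADSYN1 hold neither the word nor 6 letters of it in their longest 3' UTR. A match or its absence describes the letters in this window only, and a part of the word in any change was not tested.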

How the data were processed

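Directional polyA RNA libraries of RD and Rh30 cells (12 libraries, 4 groups) had been sequenced from 1 end. The authors aligned the reads with GSNAP to GRCh38, used SAMtools and computed the deposited FPKM with Cufflinks. The annotation release and the strand setting of the quantification are not given in the sources used here. The depth in reads is unknown from FPKM. Of 66095 entries, 120 repeats of 117 identifiers were left out, keeping the one with the larger average,, and 52 placeholder values of 999999999 in 17 genes were treated as missing, none of them in the genes named here.

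Comparisons used limma 3.58.1 in R 4.3.3 (lmFit, eBayes with trend) on log2(FPKM + 1), for genes that averaged 1 FPKM or more across the fitted libraries, two-sided, with Benjamini-Hochberg adjustment over all genes tested and a threshold of 0.05. The study's methods name an ANOVA of FPKM without saying whether a log was taken. An ANOVA on unlogged FPKM was run as an alternative, and limma was preferred because it shares the spread across genes. The fits were tested on simulated data. Sites and positions came from GENCODE 29. Descriptive values and figures used Python 3.11.15, pandas 2.3.3, NumPy 2.4.6, SciPy 1.17.1 and matplotlib 3.10.9.

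The 10 genes, the lists and the 3' UTR word were chosen with earlier results of these data known. The text names all 10 genes, KDM3A, the 2 called genes with the largest change per list, line and direction, and the 3 genes most like NNMT and NAPRT. Other genes named (TDO2, IDO1, IDO2, KMO, KYNU, overlapping genes, pseudogenes of NAMPT and markers by list) were named after their values were seen. Promoter and protein sequences were not used here. Alternatives were a pseudocount of 0.1, no filter, a 10 FPKM minimum in 1 or more libraries, rescaling to the same sum, median-of-ratios scaling, ANOVA, limma without trend, a replicate block, summing repeated identifiers, 1 fit over all libraries, a 1.5-fold limit and leaving out each library.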

Additional observations from a re-analysis of the deposited data

Results flagged for a closer look

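A set of 3 differences between the lines met the limits set for a closer look. With KDM3A-sh2, NAPRT was lower in every library of RD and higher in every library of Rh30 than with Scramble, with a difference between the changes of 1.51 on the log2 scale (1.32 to 1.67 without any 1 library). Because the gene was chosen from its values, the difference was not tested, and that it met the limits is a description only. The reduction of KDM3A itself was smaller in Rh30 by 0.372 on the log2 scale (adjusted p = 0.0387 in the limma interaction). It was lower in 3 of 3 KDM3A-sh2 libraries in each line, and the interaction kept its direction in 21 alternatives but was not called in 12 of them, 8 of which left out 1 library (adjusted p 0.0229 to 0.0920 over the 21). CHRNA1, the acetylcholine receptor subunit in the muscle list, was higher in RD and lower in Rh30 in every library, and the difference of -1.06 was called (adjusted p = 8.73e-08). The limits took list genes only from the 2 largest called changes per line and direction. Outside them, MYOD1 and MYOG were called lower in RD and higher in Rh30. Their differences of 0.52 and 0.70 were called in the limma interaction (adjusted p = 0.000913 and 3.06e-05).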

How the results depend on the processing

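Under the alternatives, the 3 calls in RD (QPRT, NMNAT1, NT5E), that of QPRT in Rh30 and the 5 between the lines with Scramble (NT5E, there through RD only, included) kept their direction and side of the threshold in every alternative fit in which the gene was tested (a 1.5-fold limit was applied to counts only). With that limit, 0 of the 8 genes were called in RD and 0 in Rh30, and over all genes 1773 in RD, 1120 in Rh30, 1785 for the difference and 8768 between the lines. Of the 8 genes, Rh30 gave 2 with a filter of 10 FPKM (NADK added), and 3 in 1 fit over all 12 libraries (NAMPT added, and NT5E, which passed the filter there only through RD), while ANOVA gave 2 for the difference. Leaving out 1 library gave 3 to 3 of the 8 genes in RD, 1 to 2 in Rh30, 0 to 1 for the difference and 5 to 6 between the lines, and over all genes 5989 to 6365, 3216 to 4073, 4405 to 4761 and 12918 to 13246. The gene added between the lines was NMNAT2, without replicate 3 of Rh30 Scramble. Like NT5E it passed the filter there only through RD, where it is higher, so that it had to differ. The lowest count in Rh30, 3216, came without replicate 1 of KDM3A-sh2. The cause of these shifts was not tested, apart from the fewer libraries.

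The replicate numbers did not pair the samples, since deviations of same-numbered libraries correlated at -0.0744 to -0.00932. With the replicate block, 6266 genes were called in RD and 3422 in Rh30, and of the 8 genes 3 in RD and 2 in Rh30, where NADK was added (adjusted p = 0.0493).

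Small, uncalled changes reversed their sign. NAMPT in RD became 0.0282 after rescaling to the same sum and 0.00119 with median-of-ratios scaling. The QPRT difference between lines became -0.0427 and -0.00491 under the same scalings, and that of NT5E became 0.521 with a pseudocount of 0.1. Leaving out 1 library gave -0.0449 to 0.0499 for NAMPT in RD, -0.213 to 0.148 for NMNAT2, -0.0233 to 0.0607 for NADSYN1, -0.0545 to 0.158 for NADK and -0.0126 to 0.0614 for the QPRT difference. NNMT and NAPRT kept their sign in every alternative. Of 1022 counts over the related and marker lists under an alternative, 145 differed by more than 1.5 times from the value reported. FPKM below 1, as for NMNAT2, NMNAT3 and NT5E in Rh30, limit what can be said of them.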
